A study of Mus musculus with 27 samples.

Results

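Erythroid genes were followed in the livers of 2 week-old suckling mice through 8 genes that are used by developing red cells: Alas2, Slc4a1, Klf1, Gata1, Rhag, Ermap, Tspo2 and Trim10. They were chosen by name as genes of this lineage, with earlier results of these data known, out of 18820 genes with a probe set of their own. Each was read from the single-gene probe set with the highest mean over 27 arrays. Male pups of dams on the Western-style diet (WSD, n = 6) were compared with male pups of dams on the low fat diet (LFD, n = 6), and female WSD pups (n = 6) with female LFD pups (n = 9). All pups were C57BL/6J offspring of sires on control diet. The dams ate their diet for 6 weeks before mating and through gestation and lactation, with 45% of energy as fat and 196.5 mg cholesterol per kg in WSD, and 10% of energy as fat and 18.0 mg cholesterol per kg in LFD. The diets therefore differed in fat, carbohydrate and cholesterol together. Litters held several pups, and the labels do not name the dam of a pup, so pups of a group may share a mother and p-values measure the spread between pups only.

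The foetal liver is the main site of red cell production in the mouse, and small islands of precursors remain there for a time after birth while bone marrow takes over. In an erythroid precursor the factors Gata1 and Klf1 switch on the genes for haem synthesis, globin chains and the red cell membrane. Haem synthesis begins with 5-aminolevulinate synthase, whose erythroid form is Alas2, whereas hepatocytes use another form and share the later enzymes of the pathway. Whole liver was measured here, so fewer erythroid cells and less RNA per cell cannot be told apart, and neither can RNA of red cells in the blood of the organ and RNA of precursors resident in it.

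The labels of the 27 arrays carried a further number that they do not define, 39, 40 or 48 on WSD arrays and 37, 49 or 50 on LFD arrays, so that each number lay within 1 diet. The labels do not say whether a number marks a dam or litter. If it did, a group would hold 2 or 3 litters, and p-values that count pups would be too small. Of the male pups, m-LF6 and m-WS1 gave a signal for Xist, the RNA of the inactive X chromosome, of 9.30 and 7.92, against at most 4.50 in the other 10 males and at least 11.67 in the females. Both stand between the sexes in this gene, and results that rest on them are also given without them.

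The stretch around the annotated start site was read from RefSeq (GRCm38.p6), 250 bases before to 50 bases after it, for 7 of the 8 genes, all but Slc4a1. The promoters of Alas2 (chromosome X:150547167-150547466, plus strand), Klf1 (chromosome 8:84901732-84902031, plus strand), Rhag (chromosome 17:40810899-40811198, plus strand) and Ermap (chromosome 4:119189946-119190245, minus strand) are shown because Rhag, Ermap and Klf1 varied together among pups and Alas2 did not. For Klf1, Pearson's r was 0.655 with Rhag and 0.644 with Ermap, but 0.306 and 0.167 without the arrays of number 50. Centred within array number and sex, these pairs had r of 0.50 and 0.55. Capitals mark the GATA word, searched on both strands as AGATAA or with a final G as AGATAG, and with a first T as TGATAA or with both changes as TGATAG. In these 4 promoters the word lies on the strand opposite to the one printed, and therefore reads TTATCT or TTATCA.
Alas2: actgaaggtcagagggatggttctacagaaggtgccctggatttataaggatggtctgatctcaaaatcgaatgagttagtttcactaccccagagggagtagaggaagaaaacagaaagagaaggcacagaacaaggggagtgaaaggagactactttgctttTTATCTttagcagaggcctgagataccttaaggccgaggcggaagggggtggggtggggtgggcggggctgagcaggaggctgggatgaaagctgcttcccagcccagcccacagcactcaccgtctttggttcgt
Klf1: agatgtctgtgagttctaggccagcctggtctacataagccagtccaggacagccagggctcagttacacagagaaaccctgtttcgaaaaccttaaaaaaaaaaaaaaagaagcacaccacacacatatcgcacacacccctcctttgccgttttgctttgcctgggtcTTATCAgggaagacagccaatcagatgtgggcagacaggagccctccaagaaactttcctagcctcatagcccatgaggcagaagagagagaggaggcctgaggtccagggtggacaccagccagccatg
Rhag: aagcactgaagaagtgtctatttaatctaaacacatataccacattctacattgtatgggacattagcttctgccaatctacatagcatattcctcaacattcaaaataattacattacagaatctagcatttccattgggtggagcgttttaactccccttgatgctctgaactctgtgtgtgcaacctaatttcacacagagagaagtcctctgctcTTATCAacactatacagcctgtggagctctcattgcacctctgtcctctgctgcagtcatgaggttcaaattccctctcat
Ermap: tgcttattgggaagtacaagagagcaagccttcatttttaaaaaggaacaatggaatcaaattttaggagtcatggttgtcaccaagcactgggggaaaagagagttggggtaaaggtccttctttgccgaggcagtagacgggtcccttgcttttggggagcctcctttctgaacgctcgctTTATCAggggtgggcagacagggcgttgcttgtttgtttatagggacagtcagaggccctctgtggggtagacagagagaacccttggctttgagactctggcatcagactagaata
The first base of the word stands at -86 in Alas2, -80 in Klf1, -31 in Rhag and -67 in Ermap, counted from the start site. Trim10 also holds 1 such word, at -163, while Gata1 and Tspo2 hold none in this window. The word was present in 5 of the 7 promoters, against 29.8% of 32851 promoters of the same length. The letters CACCC, the core of the sequence that Klf1 binds, were present on either strand in 7 of 7, against 57.5% of all promoters. No GATA word of these promoters overlapped a CACCC word. Alas2 held both words, as did Klf1, Rhag, Ermap and Trim10.

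The 8 genes were measured at very different distances from the floor of the arrays. Alas2, Slc4a1, Klf1 and Ermap were above an intensity of 20 (4.32 on the log2 scale) on all 27 arrays, Trim10 on 10, Rhag on 8, Tspo2 on 1 and Gata1 on 0. Gata1, the factor that defines the lineage, was thus never above that level. Tests across genes used 10810 genes that reached the level on at least 4 arrays and varied by an interquartile range of at least 0.1, and 6 of the 8 genes were among them. For Gata1 and Tspo2, p-values come from a fit of all 18820 genes without these filters, since they did not reach the intensity level on 4 arrays.

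Among the membrane genes, Slc4a1, the band 3 anion exchanger of the red cell, lay at 6.50, 7.00 and 7.90 (lowest, median, highest log2 value) in male WSD pups, against 6.88, 7.16 and 8.30 in male LFD pups. In females it lay at 6.80, 7.20 and 7.64 in WSD pups and at 6.25, 7.21 and 8.48 in LFD pups. The WSD and LFD values overlapped in both sexes, and the highest pup of each sex, m-LF5 and f-LF8, was on LFD. The share of all genes whose groups overlap was not counted, so overlap here and below is a description only. Rhag, the Rh-associated glycoprotein, lay at 3.61, 4.03 and 4.84 in male WSD pups, against 3.56, 4.04 and 4.90 in male LFD pups. Its female values were 3.82, 3.93 and 4.33 in WSD pups and 3.45, 3.95 and 5.10 in LFD pups. As with Slc4a1, the groups overlapped and m-LF5 and f-LF8 were the highest pups. Ermap, an immunoglobulin-type membrane protein of erythroblasts, lay at 4.85, 5.11 and 5.62 in male WSD pups, against 4.75, 5.03 and 5.77 in male LFD pups. Its female values were 4.76, 5.20 and 5.23 in WSD pups and 4.91, 5.29 and 5.89 in LFD pups. In WSD females 5 of 6 Ermap values lay close together, with f-WS2 below them, and the highest LFD females exceeded all WSD females.

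The transcription factors showed the same overlap. Klf1, which activates the adult beta globin gene, lay at 5.46, 5.64 and 5.78 in male WSD pups, against 5.06, 5.52 and 5.76 in male LFD pups. In females it lay at 5.41, 5.51 and 5.64 in WSD pups, against 5.39, 5.56 and 6.14 in LFD pups. The low end of the LFD males was set by m-LF3 and m-LF4 and the high end of the LFD females by f-LF8, while WSD pups of both sexes lay between. Gata1 lay at 3.32, 3.52 and 3.85 in male WSD pups, against 3.23, 3.42 and 4.11 in male LFD pups. In females it lay at 3.31, 3.43 and 3.67 in WSD pups and at 3.32, 3.64 and 4.19 in LFD pups.

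Alas2, the enzyme that sets the pace of erythroid haem synthesis, lay at 8.31, 8.52 and 8.68 in male WSD pups, against 8.42, 8.73 and 8.77 in male LFD pups. In LFD males 5 of 6 values lay between 8.70 and 8.77, above every WSD male, and m-LF2 alone lay within the WSD range. In females it lay at 8.40, 8.67 and 8.87 in WSD pups, against 8.25, 8.60 and 9.10 in LFD pups. Tspo2, an erythroid protein of the translocator family, lay at 3.50, 3.68 and 3.92 in male WSD pups, against 3.36, 3.59 and 4.01 in male LFD pups. In females it lay at 2.97, 3.68 and 3.83 in WSD pups and at 3.41, 3.83 and 4.53 in LFD pups. Trim10, a ring finger protein of late erythroblasts, lay at 4.02, 4.27 and 4.70 in male WSD pups, against 4.11, 4.23 and 4.44 in male LFD pups. In females its WSD values, 4.27, 4.38 and 4.44, were tight within the LFD values of 3.98, 4.28 and 4.63. The highest male value of Trim10 came from m-WS1, a pup with an Xist signal.

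**Figure D1:**
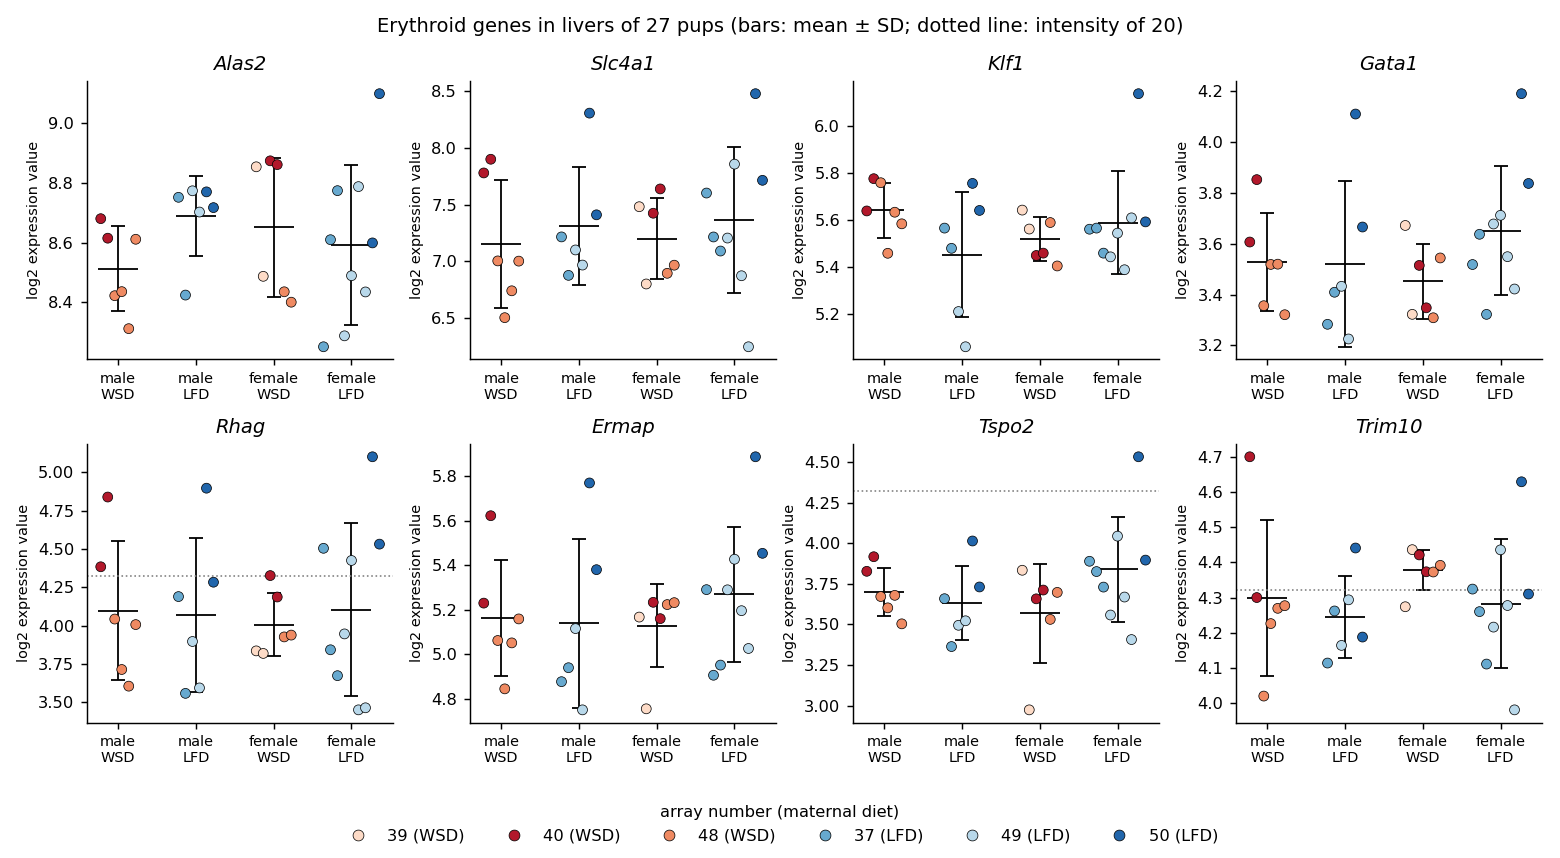
Log2 expression value (vertical axis, each panel on its own scale) of the 8 erythroid genes, 1 point a pup, split by the sex of the pup and the diet of its dam and coloured by array number. Bars give the mean and SD, and the dotted line marks the intensity of 20. WSD and LFD pups overlapped for every gene shown, and the share of all genes with such overlap was not counted. The pups m-LF5 and f-LF8, both of number 50, were each among the top 5 pups for 7 of the 8 genes.

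No erythroid gene was called for maternal diet in either sex. At p of at most 0.01, the threshold of the study's methods, 0 of 6 genes tested were called in males, where 5.62% of all genes tested were called, and 0 of 6 in females, where 5.19% were called. At an unadjusted p under 0.05 limma also gave 0 of 6 in either sex, and Tspo2 in females was the 1 of the 8 genes under it in the fit without filters. The share of all genes under 0.05 was not counted, so the counts at that level have no background beside them. With 6 genes, counts of 0 at p of at most 0.01 do not stand apart from the background shares of 5.62% and 5.19%. Over the 8 genes the median log2 fold change of WSD over LFD was 0.03 in males and -0.12 in females, beside 0.01 in males and 0.01 in females over all genes tested. Neither median kept its sign when arrays were left out: it was -0.10 in males without number 40 and 0.03 in females without number 50. Without f-LF8 alone the female median kept its sign but shrank to -0.0137. In males the largest estimates were 0.19 for Klf1 (95% interval -0.03 to 0.41, limma adjusted p = 0.442) and -0.18 for Alas2 (-0.41 to 0.05, adjusted p = 0.515). Without the arrays of number 48 the estimate for Alas2 was -0.0423. In females they were -0.27 for Tspo2 (-0.54 to -0.0043, adjusted p = 0.416) and -0.20 for Gata1 (-0.44 to 0.04, adjusted p = 0.518), both from the fit without filters. The intervals were widest for Slc4a1, -0.74 to 0.42 in males and -0.69 to 0.37 in females, so differences within these ranges, of either sign, were not excluded for this gene. Those for Trim10 were narrow, -0.13 to 0.24 in males and -0.08 to 0.27 in females.

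Pup by pup, an exact 2-sided permutation test of the difference in means gave an adjusted p of at least 0.632 in all 16 tests of a gene in a sex. The smallest unadjusted value was that of Alas2 in males, exact p = 0.0541, where the smallest value possible with 6 against 6 pups was 0.00216. The estimate for Klf1 in males moved with the choice of arrays, to 0.031 without the arrays of number 49. It passed the threshold with array weights, at a log2 fold change of 0.27 (adjusted p = 0.125, limma), and without the arrays of number 50, at 0.31 (adjusted p = 0.0347, limma). Without the arrays of number 49, Tspo2 in females also passed it, at -0.41 (adjusted p = 0.706, limma without filters). Without number 50 the LFD males were 4 pups, among them m-LF3 and m-LF4, which held the 2 lowest Klf1 values of the series. Without m-LF6 and m-WS1 the count of called genes stayed at 0 in both sexes, where 724 of 10810 genes tested were called in males and 546 in females.

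**Figure D2:**
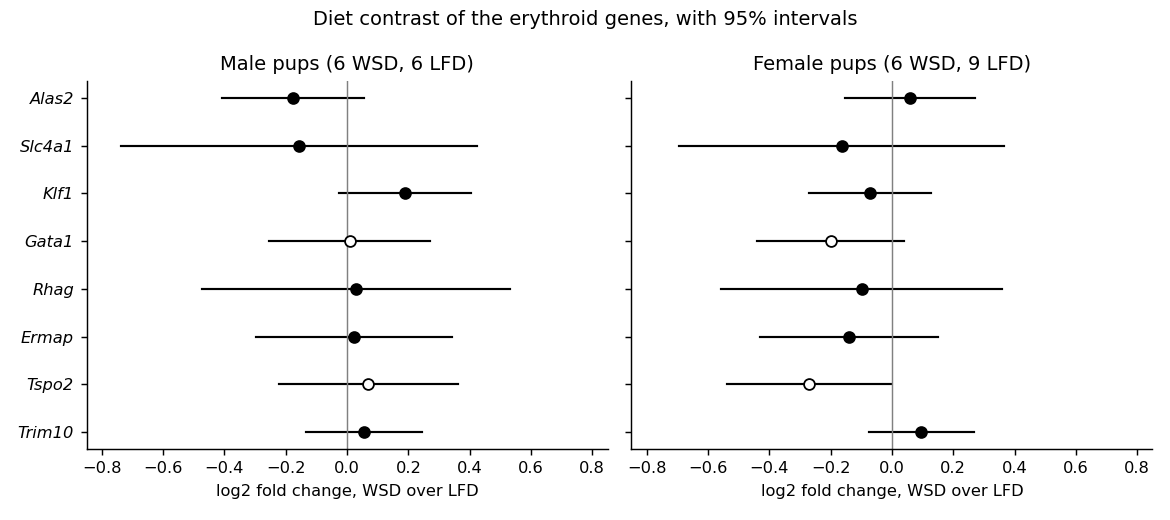
Log2 fold change of WSD over LFD (horizontal axis) for each erythroid gene in males on the left and females on the right, with 95% intervals from limma. Open symbols mark Gata1 and Tspo2, taken from the fit without filters. The intervals include 0 for all genes in males and for all but Tspo2 in females, where the upper end was -0.0043.

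The diet response did not differ detectably between the sexes. The difference, males minus females, was called for 0 of 6 genes, where 2.5% of all genes tested were called. By limma 0 of 6 were under an unadjusted p of 0.05, a level at which the share of all genes was not counted. It was 0.26 for Klf1 (-0.03 to 0.55, adjusted p = 0.566) and 0.34 for Tspo2 (-0.06 to 0.74, adjusted p = 0.676, fit without filters). Males over females, the erythroid genes were called in 0 of 6 cases on WSD and in 0 of 6 on LFD, where 3.35% and 1.37% of all genes tested were called. At an unadjusted p under 0.05 limma gave 0 of 6 on each diet, again with no share of all genes counted. The largest such estimate was -0.21 for Tspo2 on LFD (-0.48 to 0.06).

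Variation among pups of the same group was large. The within-group SD was 0.55 for Slc4a1, 0.47 for Rhag and 0.29 for Ermap, beside a median of 0.13 over all genes tested, and the SD of Slc4a1 exceeded that of 99.4% of genes tested. Alas2 (0.21), Klf1 (0.19) and Trim10 (0.16) varied less. From the lowest to the highest pup, Slc4a1 spanned 2.23, Rhag 1.65 and Ermap 1.14 log2 units. f-LF8 was the highest of 27 pups for 6 of the 8 genes, and m-LF5 was among the top 3 for 6 genes. For Alas2 these pups ranked only 16 and 8, and its highest pup was f-LF9. At the other end, f-LF7 and m-LF4 were among the 5 lowest pups for 4 genes each.

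The genes other than Alas2 were high and low in the same pups. After group means were removed, the 21 pairs without Alas2 had Pearson's r between 0.29 and 0.92 over 27 pups, with a median of 0.68, and 20 of 21 had a permutation adjusted p under 0.05 over all 28 pairs. By Spearman's rho the range was 0.09 to 0.90, and 13 of 21 passed. The closest pair was Slc4a1 and Rhag, with r = 0.92 and rho = 0.90 (permutation p = 1e-05 for both, the smallest that 100000 resamples can give, adjusted p = 5.6e-05 and 9.33e-05). By r, the next pair was Gata1 and Ermap, with r = 0.85 and rho = 0.78 (adjusted p = 8e-05 and 0.00014, permutation test). By rho, Slc4a1 with Tspo2 (0.84) and Rhag with Ermap (0.81) were closer. Gata1 was above an intensity of 20 on 0 arrays, and its r with Ermap was 0.62 without number 50. The weakest pair was Klf1 with Trim10 (r = 0.29, rho = 0.09, adjusted p = 0.194 and 0.72, permutation test). All 8 genes belong to 1 lineage and were chosen for that, so likeness among them is no independent finding.

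The 7 pairs with Alas2 had r between 0.02 and 0.38 and rho between -0.04 and 0.40, and 0 of 7 passed by either measure. Its highest r was with Slc4a1 (0.38, adjusted p = 0.103, permutation test) and its lowest with Klf1 (0.02). Leaving out the 2 pups farthest from the median of the first gene of each pair, the 21 pairs had r between 0.09 and 0.88, with a median of 0.55, and the pairs with Alas2 between 0.01 and 0.43. Slc4a1 and Rhag then still had r = 0.88.

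The likeness rested in part on the arrays of number 50. Without them, 7 of 28 pairs passed in place of 20, and without f-LF8 alone 12 passed. Slc4a1 and Rhag kept r = 0.86 without number 50, and Rhag and Ermap 0.68, whereas the pairs of Klf1 with the 6 genes other than Alas2 lay between -0.21 and 0.31. By array name prefix, another tag of the labels, the 21 pairs had a median r of 0.68 on G073 arrays and 0.83 on G074 arrays. When values were centred within each array number and sex, the 21 pairs still lay between 0.03 and 0.83 (median 0.50), and the pairs with Alas2 lay between -0.40 and 0.02 (median -0.24). The likeness of Slc4a1, Rhag and Ermap was therefore present among pups of 1 number and sex too, with r of 0.75 to 0.83 in the 3 pairs.

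**Figure D3:**
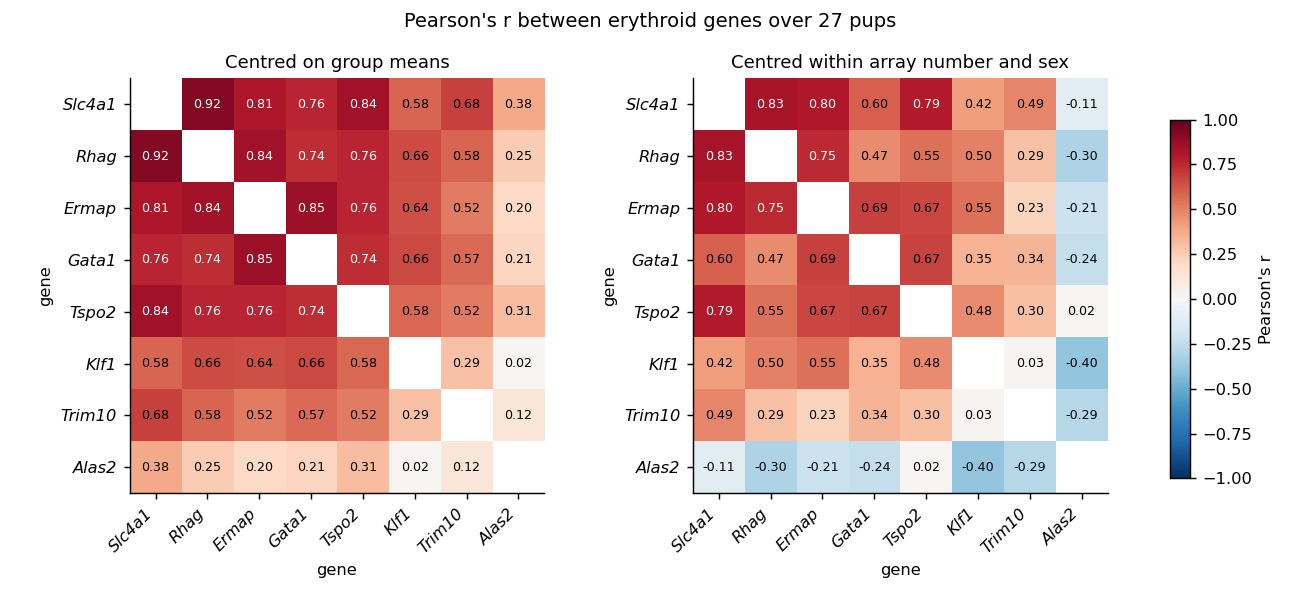
Pearson's r (colour and printed value) for each pair of erythroid genes over 27 pups, after centring on group means (left) and within array number and sex (right). Slc4a1, Rhag, Ermap, Gata1 and Tspo2 form the reddest block on both sides, and the row of Alas2 is pale on the left (0.02 to 0.38) and mostly below 0 on the right (-0.40 to 0.02).

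Within LFD, 4 of the 6 erythroid genes tested differed by array number. This comparison was added after the data were seen. An F test over numbers 37, 49 and 50 called these 4, where 8.12% of all genes tested were called, and all 4 had an adjusted p under 0.05: Slc4a1 (0.0408), Klf1 (0.0277), Rhag (0.0209) and Ermap (0.0163), by limma. In the fit without filters Gata1 (adjusted p = 0.019) and Tspo2 (adjusted p = 0.13) were also at p of at most 0.01, although Gata1 was above an intensity of 20 on 0 of 27 arrays and Tspo2 on 1. Alas2 (adjusted p = 0.383) and Trim10 (adjusted p = 0.421) were not called. Number 50 held 2 males, m-LF5 and m-LF6, and 2 females, f-LF8 and f-LF9. Their Rhag values were 4.90, 4.28, 5.10 and 4.53, against 3.56, 3.67, 3.84, 4.19 and 4.51 on arrays of number 37. Their Slc4a1 values were 8.30, 7.41, 8.48 and 7.71, against 6.88, 7.09, 7.21, 7.22 and 7.60 on number 37, so that only m-LF6 lay within the range of number 37. Number 50 overlapped number 49 as well, where f-LF5 had 7.86 for Slc4a1, above m-LF6 and f-LF9, and 4.43 for Rhag, above m-LF6. Fitted across both sexes, number 50 exceeded number 37 by 0.79 log2 units for Slc4a1, 0.65 for Ermap and 0.27 for Klf1, which were above an intensity of 20 on all arrays. The difference was 0.76 for Rhag, which was below that level (4.32) on 4 of the 5 arrays of number 37. Number 49 differed from number 37 by -0.17 to 0.13 for these 4 genes.

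The LFD result leaned on single pups. Without f-LF8, 3 of 6 genes were called, where 634 of 10810 genes tested were, and 0 had an adjusted p under 0.05. Without m-LF5 the 4 genes remained called at p of at most 0.01, where 753 of 10810 were, but 1 passed the adjusted threshold. Without m-LF6 and m-WS1, 4 were called, where 700 of 10810 were, and 3 passed. Within WSD, over numbers 39, 40 and 48, 1 of 6 genes was called, where 3.89% of all genes tested were called. This was Slc4a1 (adjusted p = 0.144, limma), at 7.42, 7.64, 7.78 and 7.90 on number 40, against 6.80 and 7.48 on number 39, and it was not called without m-WS1 or without m-WS2. On number 48 the 6 Slc4a1 values ran from 6.50 to 7.00, below all 4 values of number 40. Rhag had an adjusted p of 0.285 there, with 4.19 to 4.84 on number 40 against 3.61 to 4.04 on number 48. What the numbers stand for was not tested. With number as a random block in the diet fit, 0 of 6 erythroid genes were called in males and 0 of 6 in females. In that fit 422 of 10810 genes tested were called in males and 381 in females.

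**Figure D4:**
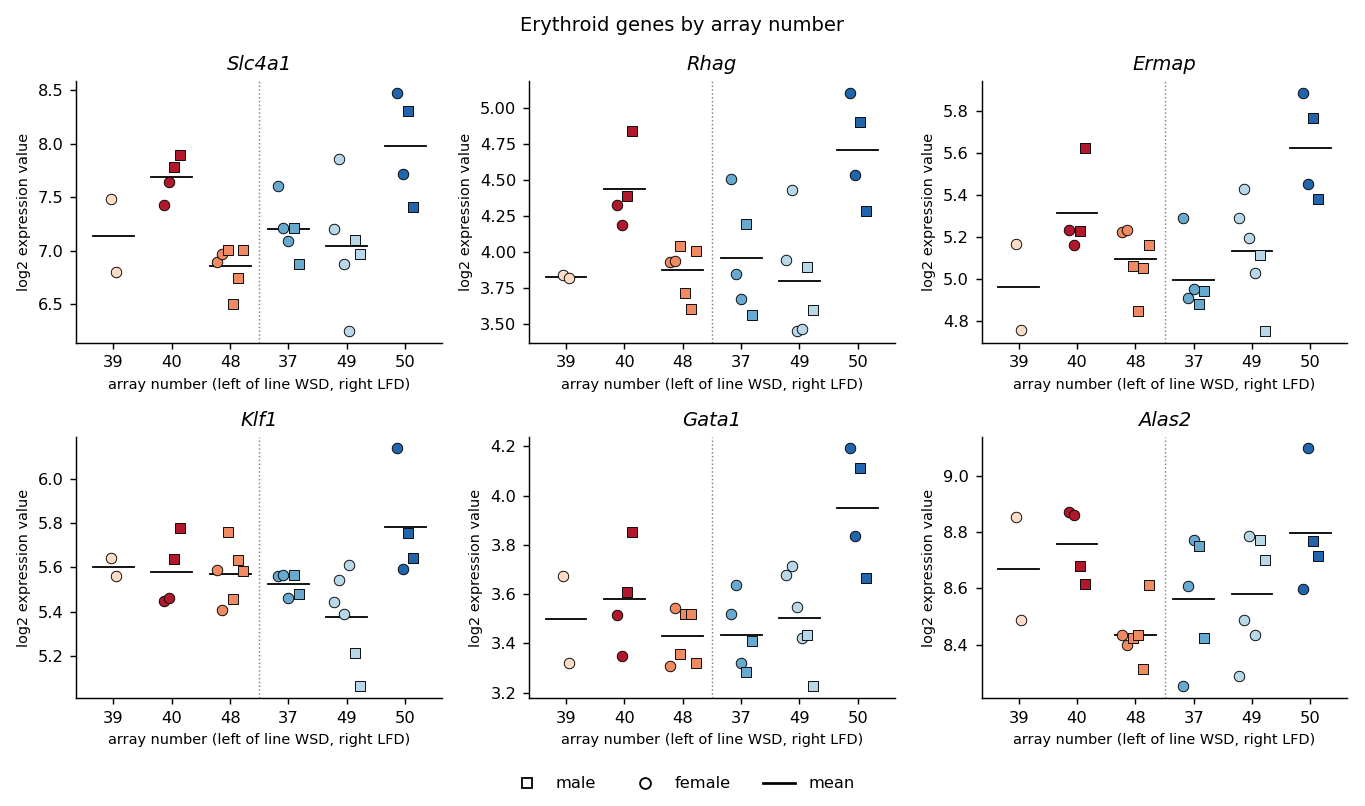
Log2 expression value (vertical axis, each panel on its own scale) of 6 erythroid genes by array number (horizontal axis), with squares for males, circles for females and lines for means, WSD numbers left of the dotted line and LFD numbers right of it. Among LFD numbers, number 50 had the highest mean of Slc4a1 (7.98) and of Rhag (4.70), and among WSD numbers, number 40 had the highest mean of both (7.68 for Slc4a1 and 4.43 for Rhag).

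Other genes of the erythroid program gave few diet calls. Of the transcription factors, 2 of 13 tested rose in WSD males, where 3.02% of all genes tested rose and 2.6% fell. These were Myb, a factor of early blood precursors, by 0.76 (adjusted p = 0.177, limma) and Ikzf1, a factor shared with lymphoid cells, by 0.43 (adjusted p = 0.177). With array number as a random block 1 of 13 rose in males, where 233 of 10810 genes tested rose. In females 0 of 13 were called, where 3.6% of all genes tested rose and 1.59% fell. Of the late erythroid and reticulocyte genes, Car1, the red cell carbonic anhydrase, rose by 0.66 in WSD males (adjusted p = 0.115), 1 of 13. Car2, another carbonic anhydrase, also made outside the lineage, rose by 0.30 in WSD females, averaging 9.56 in WSD and 9.26 in LFD females (adjusted p = 0.0265), again 1 of 13. Of 14 red cell membrane and skeleton genes, Aqp1, a water channel that endothelium also makes, fell by 0.27 in WSD males (adjusted p = 0.0797), and Sptb, the erythroid beta spectrin, fell by 0.23 in WSD females (adjusted p = 0.146). In males the log2 fold change of Sptb was -0.21 (adjusted p = 0.201, limma).

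Of the genes of haem synthesis and iron supply, 4 of 11 tested were called in females, where 5.19% of all genes tested were called, and 0 of 11 in males, where 5.62% were. The difference between the sexes was not tested for the list. In WSD females 3 rose and 1 fell: Glrx5, which serves iron-sulphur cluster assembly, by 0.19 (adjusted p = 0.107, limma), Alad, the step after 5-aminolevulinate, by 0.17 (adjusted p = 0.178), Tfrc, the transferrin receptor, by 0.18 (adjusted p = 0.178), and Slc25a38, a mitochondrial glycine carrier, fell by 0.14 (adjusted p = 0.183). Tfrc stood at -0.16 in males (adjusted p = 0.257). With array number as a random block, 1 rose and 0 fell in females, where 267 of 10810 genes tested rose and 114 fell. Hepatocytes make the later enzymes too. Over 27 pups, the r of a listed gene to the mean of the 5 tested members other than Alas2 ran from -0.715 for Glrx5 to 0.26 for Slc25a37, with a median of -0.21 beside -0.02 over all other genes. It was -0.69 for Cpox, which makes protoporphyrinogen, and -0.51 for Alad. It was below 0 for 9 of the 13 listed genes past the intensity level, against 7018 of 13273 other genes. Slc25a37, mitoferrin, which brings iron to the mitochondrion of erythroid cells, had the highest r to Alas2 of the list, 0.65.

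The globin chains could be followed only in part. Adult chains were read by 4 probe sets that each belong to several genes, 2 for alpha and 2 for beta chains, and these were not part of the test across genes. Both beta probe sets were lower in WSD males, averaging 12.10 and 12.09 in WSD males and 12.28 and 12.27 in LFD males (difference -0.18 for both, exact permutation p = 0.0216 and 0.013, adjusted p = 0.0864 over 8 tests), and they did not pass after adjustment. The alpha probe sets differed by -0.25 and -0.26 in males (exact permutation p = 0.117 and 0.106) and by -0.18 and -0.19 in females (exact permutation p = 0.155 and 0.159). The beta differences in females were -0.04 for both (exact permutation p = 0.638 and 0.586). Over 27 pups these probe sets had r to Alas2 of 0.67 and 0.68 for beta and 0.65 and 0.66 for alpha, and r of 0.34 and 0.41 for beta and 0.61 and 0.62 for alpha to the 5 other tested members. Hba-x, the embryonic alpha-like chain, was the 1 globin gene tested and averaged 4.28 in WSD and 4.23 in LFD males, near the intensity of 20.

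Of the 10 genes most like the erythroid members, 4 belonged to the red cell membrane list, 3 to the neutrophil list and 1 to the late erythroid list. Of 13273 other genes past the intensity level, the 10 with the highest r to the mean of the 6 tested members were Ank1 (0.95), Rhd (0.94), Kel (0.94), Hemgn (0.92), Ltf (0.89), Ctse (0.88), Ifitm6 (0.88), Epb42 (0.87), Elane (0.85) and Camp (0.84), as a description over 27 pups. Ank1 (ankyrin) and Epb42 tie band 3 to the skeleton, Rhd and Kel carry blood group antigens in man, and Hemgn is a nuclear protein of erythroblasts. Ltf, Elane and Camp encode granule proteins of neutrophils. f-LF8 was the highest pup for 8 of these 10 genes, and without the arrays of number 50, 6 of the 10 were again among the top 10. Epb42 then ranked 13, Elane 14, Ifitm6 18 and Camp 27. Of the 3 neutrophil genes only Ltf stayed, at rank 9, while Kel, Ank1, Rhd and Hemgn held the first 4 ranks.

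Markers of other blood cells moved with the erythroid genes. All 16 neutrophil and myeloid precursor markers past the intensity level had an r of at least 0.5 to the 5 members, as had 8 of 10 megakaryocyte and platelet markers and 5 of 7 B cell precursor markers, against 6.13% of all other genes. The erythroid lists had lower shares: 6 of 14 red cell membrane genes, 6 of 15 transcription factors and 7 of 15 late erythroid genes. In the red cell membrane list 3 of 14 genes had an r below 0, and in the haem and iron list 0 of 13 reached 0.5. Within LFD, 14 of 16 neutrophil markers differed by array number, where 8.12% of all genes tested did. With maternal diet, 4 of 16 neutrophil markers rose in WSD males, led by Cxcr2 (0.39, adjusted p = 0.0797, limma), and so did 4 of 7 B cell precursor markers, led by Igll1 (1.14, adjusted p = 0.0332), where 3.02% of all genes tested rose. In females 0 of 16 and 0 of 7 were called. The mean log2 level of the neutrophil list ran from 5.57 to 6.16 in male WSD pups, against 5.06 to 6.24 in male LFD pups, and from 5.32 to 6.18 in female WSD pups, against 5.21 to 6.35 in female LFD pups. Their part in the erythroid values was not tested. Of 18 cell cycle genes, 3 fell in WSD males, among them Ccne1 by 0.45 (adjusted p = 0.0511), and 1 rose in WSD females, Mcm6 by 0.25 (adjusted p = 0.172), where 2.6% of all genes tested fell in males and 3.6% rose in females. With array number as a random block 2 of the 18 fell in males and 0 rose in females. In that fit 189 of 10810 genes tested fell in males and 267 rose in females. The median r of the cell cycle genes was 0.06 to the 5 members and 0.46 to Alas2. Of 10 megakaryocyte and platelet markers 1 was called in males: Vwf, also made by endothelium, fell by 0.54 in WSD males (adjusted p = 0.033), while 8 of the 10 had a log2 fold change above 0, with a median of 0.12. Of 11 macrophage markers 1 was called in males, the receptor Cd163, which fell by 0.59 in WSD males (adjusted p = 0.0437, limma). Of 2 hepatocyte markers tested 1 was called in males, the foetal protein Afp, which fell by 1.48 in WSD males (adjusted p = 0.0333, limma). In females 0 genes of these 3 lists were called, and the log2 fold change was -0.06 for Vwf, -0.05 for Cd163 and -0.24 for Afp.

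**Figure D5:**
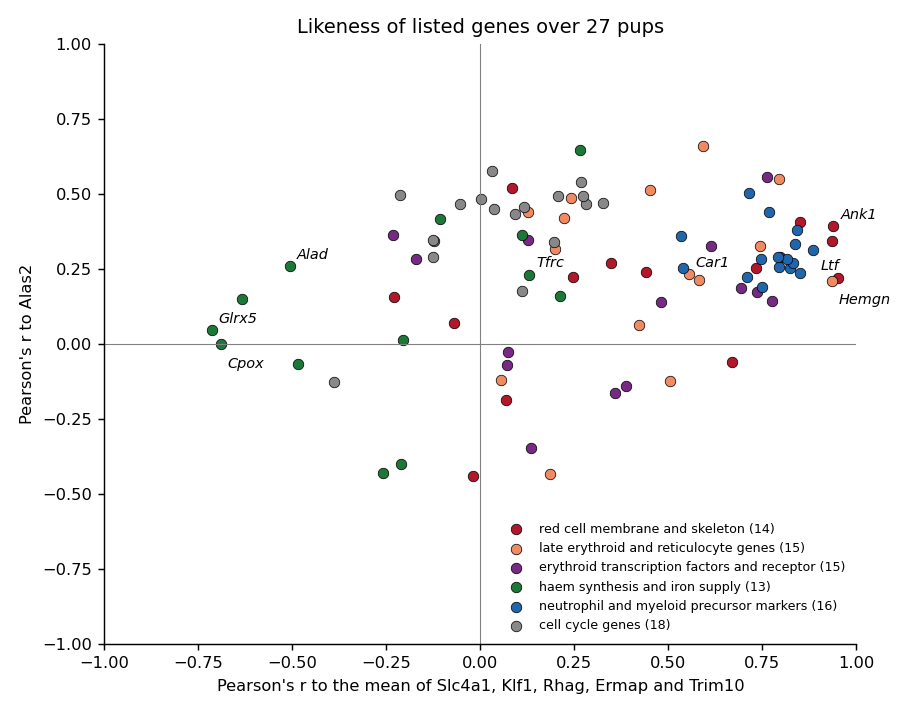
Each point is a listed gene, placed by its Pearson's r over 27 pups, after group means were removed, to the mean of Slc4a1, Klf1, Rhag, Ermap and Trim10 (horizontal axis) and to Alas2 (vertical axis), with the number of genes in brackets. Neutrophil markers lie to the right with Ank1 and Hemgn, Glrx5, Cpox and Alad to the left, and cell cycle genes mostly near 0 on the horizontal axis and above 0 on the vertical one.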

How the data were processed

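Liver RNA of each pup was hybridised to 1 Affymetrix Mouse Gene 1.1 ST array, and the authors deposited log2 values made by robust multiarray analysis (RMA, Bioconductor; version not given in the sources used here), background-corrected, quantile normalised and summarised per probe set, for 35556 probe sets. RMA makes arrays alike in distribution, so total shifts are not seen. Of 23099 probe sets with a gene name, 21218 had 1 gene and 1881 had several and were left unnamed. The 8 genes had 1 probe set each. Groups were fitted with limma 3.58.1 (R 4.3.3; lmFit, eBayes with intensity trend, 4 group means), after dropping genes that reached an intensity of 20 on fewer than 4 arrays or had an interquartile range under 0.1, called at p of at most 0.01 as in the study's methods, with Benjamini-Hochberg adjustment over 10810 genes. Array number was tested by an F test nested in the groups. Single genes were tested by exact permutation and pairs by 100000 permutations within groups, in Python 3.11.15. Genes named are the 8 members, up to 4 of smallest p per list and sex, and the 10 most like the members. Members, lists and tests were chosen with earlier results of these data known. The fit was tested on simulated data. The number of arrays limits the precision.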

Additional observations from a re-analysis of the deposited data

Results flagged for a closer look

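In 5 of 32 groups of pups, 1 per gene, sex and diet, a single pup lay apart from the rest by more than a Dixon criterion at 95% allows. Chance gives about 5% of independent groups. These groups are not independent, since the 8 genes were read in the same pups and most varied together, so the count cannot be set against that share. On LFD, m-LF2 had the lowest Alas2 value of its group, 8.42, against 8.70 for the next male, m-LF5 had the highest Slc4a1, 8.30, against 7.41, and f-LF8 the highest Klf1, 6.14, against 5.61. On WSD, f-WS2 had the lowest Ermap, 4.76, against 5.16 for the next female, and the lowest Tspo2, 2.97, against 3.53. The pups m-LF5 and f-LF8 share array number 50.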

How the results depend on the processing

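Counts of erythroid genes called for diet, for its difference between the sexes and for sex stayed at 0 of 6 under all alternatives, with 2 exceptions in males: 1 gene, Klf1, with array weights and 0 to 1 when single pups or array numbers were left out. When single pups or array numbers were left out, the median log2 fold change over the genes ran from -0.10 to 0.26 in males and from -0.21 to 0.03 in females, so its sign turned in both sexes. Signs of fold changes near 0 turned: with arrays centred on their median Gata1 in males was -0.0092; with arrays of a number and sex averaged Slc4a1 in males was 0.0133 and the difference between the sexes of Trim10 0.0369; without m-LF6 and m-WS1 Trim10 in males was -0.0364 and the difference of Slc4a1 -0.0993; with array weights Rhag in females was 0.0204 and the difference of Slc4a1 -0.0907. With the replicate number of the labels as a block, no call changed (0 of 6 in each sex), the median was 0.03 in males and -0.01 in females, and Klf1 in females was 0.024, Rhag in females 0.0316, and the differences of Slc4a1 -0.0515 and of Rhag -0.0027. That number does not pair pups: same-numbered WSD and LFD pups correlated from -0.255 to 0.109 in males and from -0.218 to 0.264 in females, so they share only a number.

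Leaving out single pups or array numbers gave, in males, ranges of -0.24 to -0.0423 for Alas2, 0.031 to 0.31 for Klf1, -0.50 to 0.53 for Slc4a1, -0.0923 to 0.21 for Gata1, -0.23 to 0.54 for Rhag, -0.11 to 0.29 for Ermap, -0.0165 to 0.24 for Tspo2 and -0.0456 to 0.26 for Trim10. In females they were -0.0482 to 0.18 for Alas2, -0.42 to 0.0451 for Slc4a1, -0.15 to 0.0075 for Klf1 and -0.33 to 0.10 for Rhag. Differences between the sexes ranged from -0.17 to 0.55 for Slc4a1, -0.0201 to 0.60 for Rhag and -0.13 to 0.16 for Trim10. In males the highest ends came without number 48, which leaves 2 WSD males, except that of Klf1, which came without number 50. The cause was not tested.

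Genes called by array number numbered 3 to 4 within LFD and 0 to 2 within WSD when single pups were left out, and 0 within WSD without m-LF6 and m-WS1. Pairs of genes alike over pups numbered 7 to 20. Exact tests by pup passed in 0 of 16 cases throughout. Gata1, Tspo2, Rhag and Trim10 lie below or near the intensity of 20, which limits what their values can show, and pups of 1 dam cannot be told from pups of several.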
